A study of Homo sapiens with 12 samples.

Results

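Very long m6A intervals, here those of 3000 bp or more, were found in MeRIP-seq peak lists from K1 cells, an established papillary thyroid cancer line. An interval is a stretch of the genome over which RNA pulled down with an antibody against m6A was listed as enriched over input RNA. Among 50501 listed intervals, 3011 were of this length, and those sharing at least 1 bp were merged across the lists into 718 regions of 12995 in all. The members were chosen by their measured length, so counts of regions by length are given as a description with no test.

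The study asked how knockdown of FTO, a demethylase that removes m6A from RNA, changes the methylated transcripts of these cells. K1 cells had been transfected with a control siRNA (si-NC, labelled si-NC1 in all 3 replicates) or with an siRNA against FTO (si-FTO), and each group had 3 IP and 3 input libraries, 12 in all. A peak list was deposited for each IP library, 6 in all, and their positions are in hg19. All 6 lists come from 1 cell line after transient transfection, and no source states that the replicates were separate cultures. The p-values given here therefore describe the spread among 6 lists, which may be technical.

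A pair of siRNA designs against FTO, a gene on chromosome 16, is given with the study, and the sense strands are shown because this knockdown is what sets the groups apart in the labels. The capitals mark the TT at the 3′ end. No source says which of these designs went into which si-FTO replicate, and a difference between the designs cannot be told apart from the spread among the si-FTO lists.
si-FTO-1: tcaccaaggagactgctatTT
si-FTO-2: ctagggttttgcttccagaaTT

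N6-methyladenosine is set on mRNA by a methyltransferase complex that METTL3 and METTL14 form with cofactors such as WTAP, RBM15 and RBM15B. It is removed by FTO and ALKBH5, and it is bound by reader proteins that alter splicing, translation and decay. The mark is known to gather near stop codons, in 3′ untranslated regions and within unusually long internal exons. Fragments around several neighboring sites can overlap, so a stretch of many sites can be listed as 1 broad interval. Whether a broad interval here holds 1 site or many cannot be read from a peak list, and the sequence under it was not analysed here.

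The 6 lists differed in peak numbers and FDR. Peak identifiers ran up to 68972 or more in every si-NC list and up to at most 57034 in every si-FTO list, without overlap between the groups. Long intervals had a median FDR of 30.5% to 55.1% in the control lists, the highest in si-NC replicate 2, and of 26.8% to 30.9% in the knockdown lists. In each list the other intervals had a higher median FDR, of 42.1% or more. Depth is unknown because read counts were not used, and the part of these differences in the results that follow was not tested. A peak list does not measure expression, so neither the knockdown of FTO nor the thyroid identity of the cells could be checked. Of 12 markers of thyroid follicular cells, 2 had an interval in any list, and 1 of them, the transcription factor gene FOXE1, had a long one. It was 3461 bp in all 6 lists.

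The si-NC lists held 508, 469 and 484 long intervals, and the si-FTO lists held 502, 522 and 526. The means were 487.0 ± 19.7 (SD, n = 3) and 516.7 ± 12.9 (SD, n = 3), and the groups overlapped because si-NC replicate 1 lay above si-FTO replicate 1. These were 5.38% to 6.03% of the intervals of a si-NC list and 6.17% to 6.38% of those of a si-FTO list. The long intervals covered 23.3%, 22.2% and 21.8% of all listed bases in si-NC, against 24.3%, 24.3% and 24.9% with si-FTO. Every si-FTO list was thus above every si-NC list in the share of bases. The median length of the long intervals was 3779, 3866 and 3787.5 bp in si-NC, against 3841, 3877.5 and 3865 bp with si-FTO.

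The 718 regions lay in 702 genes, which were 9.21% of the 7623 genes with an interval of any length. In 17 of these genes there was more than 1 region. PLCXD1, P2RY8 and ZBED1 each had a region on X and one on Y with equal lengths, since they lie in the pseudoautosomal part that both chromosomes share, and such a pair is 1 locus listed in 2 places. The longest interval of a region ranged from 3001 to 12942 bp with a median of 3851.5 bp. It was 5000 bp or more in 145 regions and under 3300 bp in 180 regions, so 25.1% of the regions were chosen with little to spare. The intervals just inside the limit were those of TLR2 in si-FTO replicate 2, NACC1 in si-NC replicates 2 and 3 and LIG4 in si-NC replicate 3, all of 3001 bp, and of ZNF776 in si-FTO replicate 1, of 3002 bp. Just outside it were ZNF440 and ZNF611 in si-FTO replicate 1, both of 2996 bp, KIDINS220 in si-NC replicate 1, of 2997 bp, and MEX3A in si-NC replicate 1 and LRRC8D in si-NC replicate 2, both of 2998 bp.

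The longest of all was in ZNF469, a zinc finger gene on chromosome 16 whose loss causes brittle cornea syndrome. Its interval measured 12195, 12194 and 12238 bp in the si-NC lists and 12283, 12942 and 12713 bp in the si-FTO lists, from 88493879 at its low-coordinate edge. Every si-FTO value was above every si-NC value, by 437.0 bp on average, and the low-coordinate edge did not move.

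**Figure D1:**
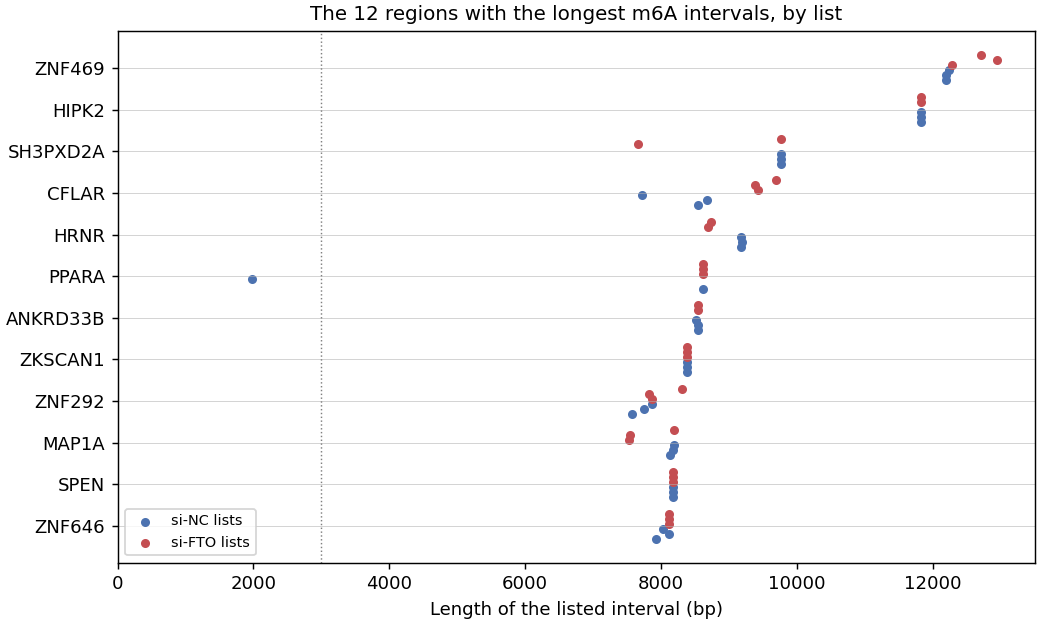
Length in bp of the listed interval in each of the 6 lists for the 12 regions with the longest intervals, si-NC in blue and si-FTO in red; the dotted line is the limit of 3000 bp and a missing point means that no interval was listed. ZKSCAN1 and SPEN had the same length in all 6 lists, and HIPK2, SH3PXD2A, HRNR and ANKRD33B had none in si-FTO replicate 1.

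HIPK2, which encodes a nuclear kinase that phosphorylates p53, followed with 11828 bp in the 3 si-NC lists and in si-FTO replicates 2 and 3, and with no interval in si-FTO replicate 1. SH3PXD2A, a scaffold of invadopodia, had 9763 bp in each si-NC list, none in si-FTO replicate 1, and 7658 and 9763 bp in si-FTO replicates 2 and 3. CFLAR, an inhibitor of caspase-8, had 8548, 8683 and 7722 bp in si-NC, against 9428, 9388 and 9693 bp with si-FTO. CFLAR was thus longer in every si-FTO list, while HIPK2 differed through si-FTO replicate 1 alone and SH3PXD2A through si-FTO replicates 1 and 2. HRNR, the gene of the epidermal protein hornerin, had 9181, 9187 and 9181 bp in si-NC and 8686 and 8735 bp in si-FTO replicates 2 and 3, with no interval in replicate 1. PPARA, a nuclear receptor of fatty acid oxidation, had 8624 bp in si-NC replicate 1 and all si-FTO lists, a shorter one of 1983 bp in si-NC replicate 3, and none in si-NC replicate 2. The coordinates of the intervals of SPEN, a transcriptional repressor that binds RNA, and of the zinc finger gene ZKSCAN1 were the same in every list. SPEN had 8176 bp on chromosome 1 from 16254586 to 16262761, and ZKSCAN1 had 8385 bp on chromosome 7 from 99630928 to 99639312.

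ANKRD33B, an ankyrin repeat gene, was listed in every library but si-FTO replicate 1, with 8544, 8551 and 8522 bp in si-NC and 8551 bp in the other 2 si-FTO lists. Of the remaining regions that were longest on average among those long in every list, ZNF292 and ZNF646 are zinc finger genes. ZNF292 had 7573, 7756 and 7861 bp in si-NC, against 7862, 7823 and 8304 bp with si-FTO, and ZNF646 had 7921, 8118 and 8024 bp against 8118 bp in each si-FTO list. MAP1A, a microtubule-associated protein, had 8136, 8171 and 8185 bp in si-NC, against 7532, 7544 and 8185 bp with si-FTO. The groups touched or overlapped in all 3 genes. RAPH1, which encodes lamellipodin at the leading edge of migrating cells, had 7732 bp in 5 lists and 7696 bp in si-NC replicate 3. APC, the scaffold of the beta-catenin destruction complex, had 7411, 7231 and 7452 bp in si-NC, against 7405, 7308 and 7298 bp with si-FTO, within the same range. ZDBF2, an imprinted gene, had 7225, 7301 and 6977 bp in si-NC, against 7349, 7354 and 7574 bp with si-FTO, with no overlap.

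A long interval was present in all 6 lists in 314 regions, or 43.7%, and in 1 list alone in 113 regions, or 15.7%. Lists of both groups held one in 512 regions, si-FTO lists alone in 117 and si-NC lists alone in 89. Counting an interval of any length, 451 of the 718 regions (62.8%) were covered in all 6 lists, while 36.5% of all merged regions were. This share was not tested, because length chose the regions.

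**Figure D2:**
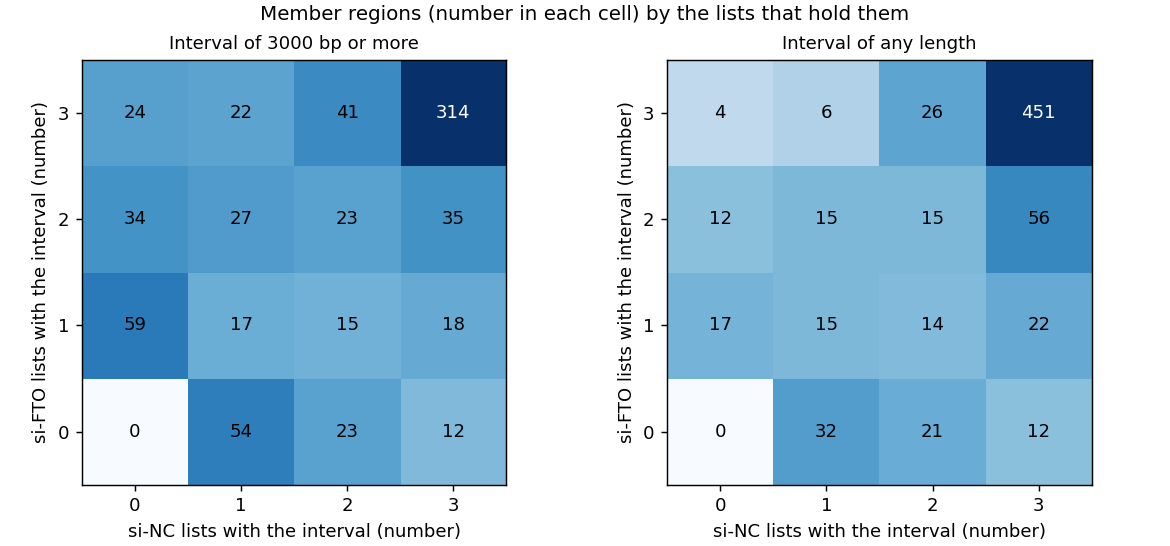
Number of the 718 regions by how many si-NC lists (horizontal axis) and how many si-FTO lists (vertical axis) held an interval, for intervals of 3000 bp or more on the left and of any length on the right. The largest cells are 314 and 451 regions in all 6 lists; the corners for 1 group alone hold 24 and 12 regions on the left and 4 and 12 on the right.

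All 3 si-FTO lists and no si-NC list held a long interval in 24 regions, and all 3 si-NC lists and no si-FTO list in 12. These counts follow from the length rule and from which lists are used: the first was 38 without si-NC replicate 1 and 39 without si-FTO replicate 2, and the second was 25 without si-NC replicate 2 and 20 without si-FTO replicate 2. What the other group held at these places differed. Of the 24 regions, 18 had a shorter interval in all 3 si-NC lists, 3 had one in 1 si-NC list and 3 had none. Of the 12 regions, 3 had a shorter interval in all 3 si-FTO lists, 1 had one in 2 si-FTO lists and 8 had none. The difference between these splits was not tested, since length chose the regions.

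The 3 regions with intervals in si-FTO alone were those of POGK, MSRB3 and DBNL. POGK, a KRAB-domain gene derived from a pogo transposon, had 5536 bp in each si-FTO list on chromosome 1 from 166818175 to 166823710, with fold enrichments over input of 11.09, 12.07 and 9.27, each on the scale of its own list. A second interval of POGK, of 323 bp, was listed in all 6 libraries, so the gene itself was not missing from the si-NC lists. MSRB3, a methionine sulfoxide reductase, had 3753 bp in each si-FTO list, and DBNL, an actin-binding adaptor, had 4606, 4838 and 4607 bp. In si-FTO replicates 1, 2 and 3 the FDR was 32.17%, 28.14% and 52.09% for the POGK region and 48.21%, 71.65% and 66.56% for MSRB3. DBNL had an interval elsewhere in si-NC replicates 1 and 2, of 1314 and 1447 bp. With intervals of any length, a further region, in the GABA transaminase gene ABAT, also belonged to si-FTO alone, with 3232, 2494 and 3239 bp.

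Those 4 of 718 regions (0.557%) compare with 2.92% of all merged regions that were listed in the si-FTO group alone. In the opposite direction 12 of 718 regions (1.67%) were listed in all si-NC lists and no si-FTO list, against 3.2% of all merged regions. Both shares were below those of all regions. Length chose the members, and any overlapping interval counted as listed, so the shares are not on an equal footing and were not tested. The count of 4 became 8 without si-NC replicate 2, 10 without si-FTO replicate 2 and 9 without si-FTO replicate 3, and the count of 12 became 27, 20 and 19 without the same libraries.

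Of these 12, 8 were long in every si-NC list. SIK2, a salt-inducible kinase, had 3422 bp in each si-NC list on chromosome 11 from 111594220 to 111597641, with fold enrichments of 10.74, 8.48 and 9.44, and no interval in any si-FTO list. KCNK3, a potassium channel gene, had 3532 bp in each, and INTS5, a subunit of the Integrator complex, had 3152 bp in each. RBM8A, a core protein of the exon junction complex, had 4370, 4343 and 4370 bp. None of these 4 genes had an interval anywhere in the si-FTO lists. In si-NC replicates 1, 2 and 3 the FDR was 32.53%, 100% and 26.25% for SIK2. It was 63.47%, 100% and 45.35% for INTS5 and 60.03%, 100% and 57.48% for RBM8A. At these FDRs the presence of single intervals is uncertain. The actin-binding gene AFAP1 had 4839, 5079 and 4803 bp, and C5orf24 had 3526, 3803 and 3554 bp. C5orf24 also had an interval of 504 to 618 bp elsewhere in all 6 lists. CSPG4, the NG2 proteoglycan, had 3063 bp in each si-NC list, beside a second region of 3537 bp that was also listed in si-FTO replicates 2 and 3. The zinc finger gene ZXDC had 3215, 3130 and 3084 bp. The other 4 of the 12 had at least 1 si-NC interval under the limit and were those of MEF2D, RNF169, GPR135 and RIN3, named here after their values were seen.

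Among the 18 regions with shorter si-NC intervals, CBFA2T2, which encodes a transcriptional corepressor, showed the widest difference. Its interval was 5690 bp in each si-FTO list and 1573, 2283 and 1821 bp in the si-NC lists, from the same low-coordinate edge at 32232153 on chromosome 20. The lists named another transcript for it in si-FTO than in si-NC, which was so for 1 of the 423 regions with exactly 1 interval in each list. HSPA12A, a distant member of the HSP70 family, had 4227 bp in each si-FTO list and 1725, 1587 and 1349 bp in si-NC, and here the low-coordinate edge had moved. KIF1C, a kinesin motor, had 3561, 4932 and 4932 bp in si-FTO and 1730, 1770 and 1408 bp in si-NC. SECISBP2L had 4289 bp in each si-FTO list against 1242, 2500 and 2755 bp in si-NC, and the procollagen-cleaving protease gene ADAMTS2 had 3474, 3465 and 3474 bp in si-FTO against 1619, 1616 and 1456 bp. None of these 5 overlapped between the groups, which was fixed in advance because the regions were chosen as long in the si-FTO lists alone.

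TSPAN18, a tetraspanin, had 3296 bp in each si-FTO list and 1540, 1614 and 1614 bp in si-NC. DAGLA, which makes the endocannabinoid 2-arachidonoylglycerol, had 3471 bp in each si-FTO list and 2059, 2042 and 2132 bp in si-NC, where replicate 2 held a second interval of 1306 bp beside it. The transcription factor gene MAF had 4174, 3941 and 4240 bp in si-FTO and 2515, 2331 and 1810 bp in si-NC, with a second interval of 424 bp in si-NC replicate 3. KLHL11 had 4081, 4025 and 4131 bp in si-FTO and 2268, 2526 and 2651 bp in si-NC. The longest interval per list did not overlap between the groups in these 4, which the same choice fixed in advance. In other genes the si-NC intervals stopped close to the limit. BCL11A, a zinc finger repressor, had 2851 bp in each si-NC list and 3834, 4168 and 3942 bp in si-FTO. BHLHE41, a clock repressor, had 2990, 2973 and 2563 bp in si-NC, against 3137, 3143 and 3143 bp with si-FTO. DACT1, an antagonist of Dishevelled, had 2382, 2288 and 2460 bp in si-NC, against 3059, 3060 and 3016 bp with si-FTO. The zinc finger genes ZNF776, ZNF658, ZBTB43 and ZXDA had si-NC intervals of 2484 to 2966 bp and si-FTO intervals of 3002 to 3635 bp. HIVEP3, CELSR2 and SALL2, the 3 regions listed in 1 si-NC library, had there 2971, 2862 and 1193 bp. Their si-FTO intervals were 4474, 4446 and 4377 bp in HIVEP3 and 3371 bp in each list in CELSR2. Those of SALL2 were 4248, 4348 and 4253 bp. HIVEP3 also had another long region, of 5582 bp, and an interval of 935 bp elsewhere, both in every si-NC and si-FTO list. The gene itself was thus not missing from the si-NC lists.

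In DISP1 and HEMK1 every si-NC list, and not 1 list alone as in DAGLA and MAF, held several intervals where the si-FTO lists held 1. DISP1, needed for the release of Hedgehog ligands, had 1 interval of 3611 bp in each si-FTO list. Over the same bases it had 2, 2 and 3 intervals in si-NC, the longest of 2577, 2683 and 1292 bp. HEMK1, a methyltransferase, had 3473, 3201 and 3250 bp in si-FTO and 2 intervals in each si-NC list, the longer of 1538, 1538 and 1501 bp. At these places the si-NC lists covered much of the same stretch with gaps, so a short si-NC interval did not there mean an unlisted stretch.

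Over all 718 regions, 2 or more intervals fell into 1 region in 16, 18 and 28 cases in the si-NC lists and in 4, 3 and 4 cases in the si-FTO lists. As a share of the regions with any interval this was 2.57%, 3.05% and 4.44% against 0.709%, 0.519% and 0.686%, and the groups did not overlap. Over all 12995 merged regions it was 0.393%, 0.451% and 0.615% against 0.215%, 0.13% and 0.146%, which did not overlap either. Of the 41 regions split in any list, 33 were split in si-NC lists alone, 2 in si-FTO lists alone and 6 in both. Splitting can be read in the group that was not used to choose the regions. Of 401 regions long in all si-FTO lists, the si-NC lists had 2 or more intervals in 10, 10 and 13. Of 379 regions long in all si-NC lists, the si-FTO lists had 2 or more in 1, 0 and 1. No interval at all was listed in 9, 20 and 10 of the 401 regions in si-NC and in 43, 20 and 22 of the 379 regions in si-FTO. Splitting of the other group's long intervals was thus listed in each si-NC list and hardly in si-FTO. Missing intervals were listed in both groups, with 9 to 20 of the 401 regions in si-NC and 20 to 43 of the 379 in si-FTO. Over all 718 regions, 95, 128 and 88 had no interval in si-NC, against 154, 140 and 135 in si-FTO. The same share over all 12995 merged regions was not counted, so this is not read as a trait of long regions. The lists held 8429, 8458 and 8999 intervals in si-NC, against 7921, 8454 and 8240 with si-FTO. Length chose the regions, so all these counts of regions are a description. The part of the differing peak numbers in these counts was not tested.

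**Figure D3:**
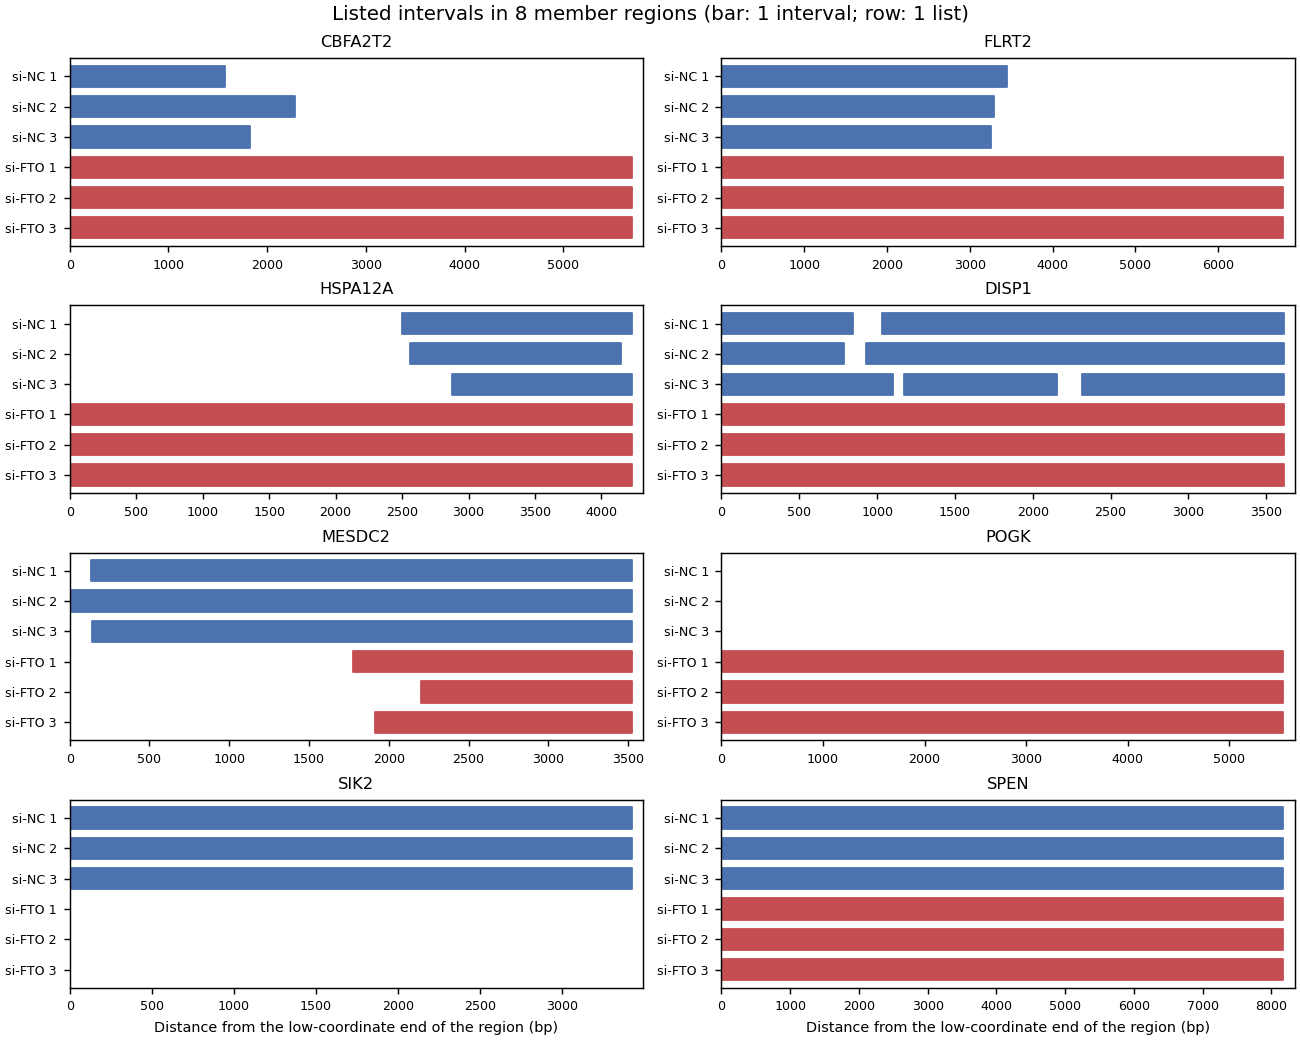
Intervals listed in 8 regions, 1 row per list (si-NC in blue, si-FTO in red) and 1 bar per interval, against the distance in bp from the low-coordinate end of the region. CBFA2T2, FLRT2 and HSPA12A were longer in every si-FTO list, DISP1 was in 2 or 3 pieces in si-NC, MESDC2 was longer in si-NC, POGK and SIK2 were listed in 1 group, and SPEN was the same in all 6.

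The edges of an interval were compared in the 423 regions that had exactly 1 interval in each list, or 58.9% of the 718. Both edges fell on the same base in all 6 lists in 159 of these regions (37.6%), 1 edge did in 235 (55.6%), and neither did in 29 (6.86%). Over all 4678 merged regions with 1 interval per list, both edges were fixed in 68.9% and 1 edge in 28.1%. A free edge was thus listed in a larger share of the member regions than of all regions, although most members kept at least 1 edge to the base. The edges set the length and the length in any list chose the members, so these shares are a description and were not tested. Where edges are fixed in every list no length difference can appear. Where these repeated edges lie in the exons of hg19 was not analysed here.

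Of the 423 regions, 76 (18.0%) were longer in every si-FTO list than in any si-NC list, against 6.61% of the 4678 regions. The opposite held for 16 (3.78%), against 1.37%. With a free edge, 76 and 16 of 264 regions (28.8% and 6.06%) compare with 309 and 64 of 1453 among all regions (21.3% and 4.4%). A long si-FTO interval could bring a region into the set, and so could a long si-NC interval, so these counts are descriptions. The excess of si-FTO over si-NC was present among all regions too. The 423 length differences, si-FTO minus si-NC, had a median of 0 bp and a mean of 196.5 bp, with 198 above, 66 below and 159 at 0. Over the 4678 regions the mean was 38.4 bp, with 1032 above and 420 below 0.

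**Figure D4:**
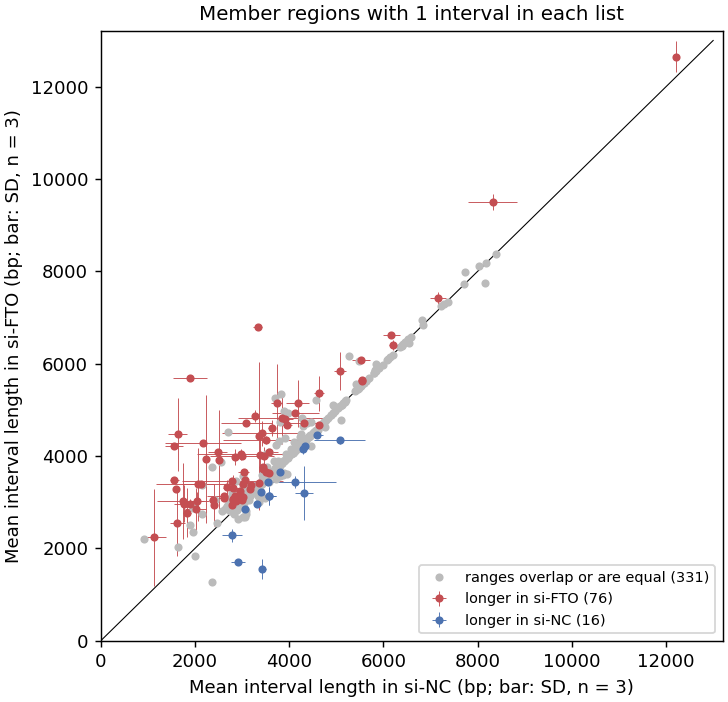
Mean interval length in the 3 si-FTO lists (vertical) against that in the 3 si-NC lists (horizontal), in bp, for the 423 regions with 1 interval in each list; bars are SDs, and the line marks equal length. The 76 regions longer in si-FTO (red) lie above the line and the 16 longer in si-NC (blue) below it. Of the other 331 (grey), 159 have equal means and lie on it, and the rest lie on either side.

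The 76 regions were longer in si-FTO by a median of 694.7 bp, from 40.0 to 3797.7 bp, and by at least 1000 bp in 25 of them. The 16 regions differed by a median of -397.2 bp, from -1872.0 to -101.3 bp, and 3 of them by at least 1000 bp. At the low-coordinate edge 36 regions (8.51%) reached further in si-FTO, against 3.53% of all regions, and 12 reached further in si-NC (2.84%), against 0.834%. At the high-coordinate edge 45 regions (10.6%) reached further in si-FTO, against 3.36%, and 5 in si-NC (1.18%), against 0.534%. In all, 93 regions (22.0%) had an edge whose positions did not overlap between the groups, against 8.1% of all regions. The strand of the gene was not used, so these edges are not called 5′ or 3′.

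After CBFA2T2, the widest shift was in FLRT2, a leucine-rich repeat receptor on chromosome 14. Its interval began at 86087483 in all lists and measured 3443, 3291 and 3253 bp in si-NC and 6788 bp in each si-FTO list. FAM46A, a member of the noncanonical poly(A) polymerase family, had 2231, 2250 and 2213 bp in si-NC, against 4742, 2346 and 4742 bp with si-FTO, so the shift rested on 2 lists. APOL6, an apolipoprotein L gene, had 3300, 3493 and 2468 bp against 4702, 4729 and 4715 bp. B3GNT7, a glycosyltransferase gene, was a member as well, with a mean difference of 56.0 bp. Its 3 si-FTO intervals were all longer than its 3 si-NC intervals, and its low-coordinate edge was fixed.

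Intervals longer in si-NC were fewer and included MESDC2, a chaperone of the Wnt co-receptors LRP5 and LRP6. It had 3388, 3522 and 3384 bp in si-NC, against 1747, 1322 and 1609 bp with si-FTO, while its fold enrichment was 21.45, 16 and 19.75 against 18.80, 19.29 and 21.04. The folds overlapped. The lengths could not, because MESDC2, like KCTD11, ZNF41 and MGRN1, was chosen as long in the si-NC lists alone. KCTD11 had 3055 bp in each si-NC list and 2810, 2880 and 2869 bp in si-FTO, and ZNF41 had 3313 bp in each against 2954, 2953 and 2988 bp. MGRN1, an E3 ubiquitin ligase, had 4716 bp in each si-NC list and none, 2674 and 2691 bp in si-FTO. P2RY8, listed on X and Y, counts as 2 of the 16 regions.

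The fold enrichment gave a measure that the length rule did not use directly. It was ranked within each list, so a percentile of 100 is the strongest interval of that list. The median percentile of the long intervals was 62.4, 63.9 and 66.1 in si-NC, against 59.5, 64.0 and 63.1 with si-FTO, while shorter intervals had 48.9 to 49.4 in every list. The gap of 14.0 ± 2.32 percentile points (SD, n = 6 lists) was positive in 6 of 6 lists (two-sided exact sign-flip permutation test, p = 0.0312, the smallest that 6 lists allow). It lay between 13.4 and 14.8 points when any 1 list was left out, where the exact permutation test on 5 lists cannot go below p = 0.0625. The lists share regions, so they are not independent samples of genes. The rank of the score, a transform of the p-value, was higher by 27.1 ± 2.34 points (SD, n = 6 lists) with the same exact p = 0.0312. The score depends on the number of reads in an interval and is less free of length than the fold.

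**Figure D5:**
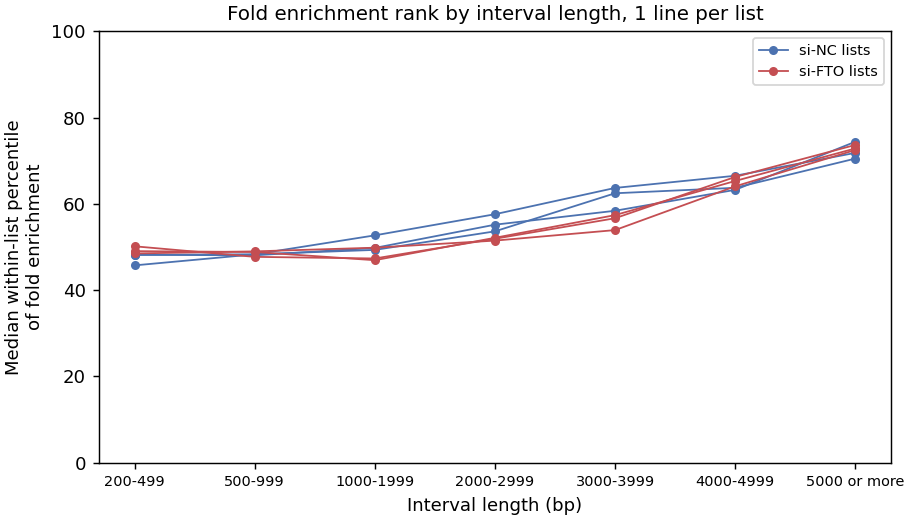
Median within-list percentile of fold enrichment against interval length in bp, 1 line per list (si-NC in blue, si-FTO in red). All 6 lines lie between 45.7 and 52.7 below 2000 bp and reach 70.5 to 74.4 at 5000 bp or more.

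Within the long class the rank of the fold was higher in each longer class in all 6 lists. It was 53.9 to 63.7 for 3000 to under 4000 bp, 63.2 to 66.5 for 4000 to under 5000 bp and 70.5 to 74.4 for 5000 bp or more. Over all intervals of a list, which share a library, the Spearman correlation of length and fold was weak, at 0.0144 to 0.1 over 7921 to 8999 intervals. The median of the long intervals was 64.1 ± 1.86 (SD, n = 3) in si-NC and 62.2 ± 2.34 (SD, n = 3) in si-FTO, a difference of -1.92 points (two-sided exact permutation test, p = 0.5, where 0.1 is the smallest that 3 lists against 3 allow). In the 423 regions with 1 interval per list, the percentile was higher in every si-FTO list in 65 (15.4%), against 17.1% of all such regions, and higher in every si-NC list in 81 (19.1%), against 14.4%. Of the 76 regions longer in si-FTO, 12 (15.8%) had the higher percentile in every si-FTO list and 12 (15.8%) in every si-NC list. By the mean over lists, the percentile was higher in si-FTO in 36 of the 76 and lower in 40.

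Among the long regions that ranked highest in every list, SEC62, a subunit of the protein translocation machinery of the endoplasmic reticulum, had folds of 40.23, 32.13 and 35.99 in si-NC, against 41.67, 38.62 and 39.24 with si-FTO. It never ranked below 98.6. Its length varied far more, with 2938, 1699 and 1781 bp in si-NC, against 3972, 1985 and 4155 bp with si-FTO. RREB1, a zinc finger factor of Ras signaling, had 3470 bp in each list with folds of 30.85, 26.47 and 31.66 in si-NC, against 32.29, 32.13 and 38.85 with si-FTO. NFIC, a member of the nuclear factor I family, had 6466 bp in each list with folds of 38.39, 36.02 and 33.54 against 26.40, 31.56 and 37.36. The chromatin regulator ANKRD11 had 6578 bp and PHLDA1 had 4646 bp in each list. AMOTL1, an angiomotin of the Hippo pathway, had 6065 bp in 5 lists and 4305 bp in si-NC replicate 3. PHF3, PURA and KAT6B completed this set with CLEC2D. CLEC2D, the ligand of an inhibitory receptor of natural killer cells, went the opposite way in length and fold. It had 2507, 2512 and 2512 bp with folds of 42.79, 44.36 and 33.33 in si-NC, and 4480, 4597 and 2697 bp with folds of 22.83, 20.83 and 21.23 in si-FTO.

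Genes with very long single coding exons made up the densest group. Of 47 such genes with an interval, 37 had a long one (78.7%), beside 9.21% of all 7623 genes. Of these, 32 were long in all 6 lists. The median of the longest interval was 5042 bp against 1014 bp over all genes. MKI67, the proliferation marker Ki-67, had 6845 bp in all 6 lists with folds of 11.09, 14.73 and 15.03 in si-NC, against 21.19, 17.17 and 18.35 with si-FTO. PLEC, the cytoskeletal linker plectin, had 7249 bp in all lists but si-FTO replicate 1. ANK2, which encodes ankyrin-B, was the single member longer in si-NC, with 4084, 4413 and 4416 bp there against 2819, 3883 and 2899 bp with si-FTO. This was 2.86% of the 35 regions of the list with 1 interval in each list, beside 3.78% of the 423 long regions of that kind, and 0 were longer in si-FTO. This list was chosen for exon length, so a high count is no independent result.

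Zinc finger genes by symbol were the largest group, with 89 of 404 (22.0%) long, beside 9.21% of all genes. Their median longest interval was 2181 bp. In 45 the interval was long in every list. Of the 64 with 1 interval in each list, 13 (20.3%) were longer in si-FTO and 5 (7.81%) in si-NC, beside 18.0% and 3.78% of the 423 long regions of that kind. ZNF518A, chosen after its values were seen, had 5072, 5202 and 4955 bp in si-NC, against 6127, 5363 and 6017 bp with si-FTO. ZNF260 went the other way with 3077, 2815 and 2830 bp against 1742, 1699 and 1666 bp. Among the genes that the lists annotate with a function or process, DNA binding was given for 24.0% of 655 long genes and 12.8% of all 6899. Sequence-specific transcription factor activity was given for 14.2% against 7.78%. ATP binding went the other way with 7.48% against 10.2%. These terms were read after their values had been seen and were not tested.

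Of 94 chromatin regulators with an interval, 27 had a long one (28.7%), beside 9.21% of all genes. In 21 it was long in all 6 lists, and the median longest interval was 1851 bp. Besides SPEN and ANKRD11, members with intervals equal in all lists included TCF20 (5691 bp). They also included ASH1L (4564 bp) and KMT2A (4249 bp), named after their values were seen. ASXL2, a Polycomb-associated factor, had 6316, 6208 and 5963 bp in si-NC, against 6686, 6627 and 6567 bp with si-FTO. The H3K36 methyltransferase gene NSD1 had 3317, 3341 and 3393 bp against 3526, 6280 and 3483 bp, where the wide gap came from 1 list. TET3, a 5-methylcytosine dioxygenase of DNA, had 3684, 3859 and 3648 bp in si-NC against 5688, 5598 and 4169 bp. CHD6, a chromatin remodeler, had 1946, 1818 and 1539 bp in si-NC against 2941, 3387 and 2582 bp. These 4 were the members longer in si-FTO, 16.7% of the 24 with 1 interval in each list, which is close to the 18.0% of all such long regions, and 0 were longer in si-NC. TET3 and CHD6 were named for this after their values were seen.

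The m6A machinery itself had 2 long members of 15 with an interval (13.3%, beside 9.21% of all genes), with a median longest interval of 1461 bp. RBM15, which guides the methyltransferase to RNA, had 3368 bp in all 6 lists on chromosome 1 from 110881945 to 110885312. Its folds were 7.49, 8.43 and 9.33 in si-NC, against 9.11, 8.33 and 6.11 with si-FTO, so the groups overlapped. RBM15B, its paralog, had 6638 bp in si-NC replicates 1 and 3 with folds of 13.75 and 14.04. No interval of it was listed at this place in si-NC replicate 2 or in any si-FTO list. Neither gene met a rule for a group difference, since RBM15B was missing from 1 si-NC list.

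MAPK and receptor tyrosine kinase signaling had 8 long members of 50 (16%, beside 9.21% of all genes). Their list had a median longest interval of 1255.5 bp, and 6 members were long in all lists. The adaptors IRS1 (3802 bp) and IRS2 (4526 bp), the mTORC1 inhibitor TSC1 (5407 bp), the feedback inhibitor SPRY4 (4729 bp) and the transcription factor JUN (3323 bp) had the same length in every list. JUN folds were 18.30, 18.12 and 18.08 in si-NC, against 13.85, 16.44 and 18.55 with si-FTO. SOS1, the Ras exchange factor, was the member longer in si-FTO, with 1937, 1927 and 1819 bp in si-NC against 2857, 3056 and 2983 bp. It reached the limit in si-FTO replicate 2 alone. This was 14.3% of the 7 members with 1 interval in each list, beside 18.0% of the 423 long regions of that kind, and 0 were longer in si-NC. GAB2, a docking adaptor, had 1887 and 4126 bp in si-NC replicates 1 and 2 and no interval in the other lists.

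Wnt signaling had 7 long members of 26 (26.9%), 5 of them in all lists. Notch and Hippo signaling had 7 of 23 (30.4%), 5 of them in all lists. The share over all genes was 9.21%. Median longest intervals were 1894 and 1702 bp. DVL3, a transducer of Frizzled receptors, had 3208 bp and BCL9L, a beta-catenin cofactor, had 3367 bp in every list. The receptor gene FZD7 had 2907, 2859 and 3037 bp in si-NC and none, 3509 and 3253 bp in si-FTO. FAT1, an atypical cadherin, had 2 regions of 4068 and 3283 bp, both equal in all 6 lists. NOTCH2 had 5114 bp in si-NC replicates 2 and 3, 5021 bp in si-FTO replicate 2 and none elsewhere. TGF-beta and BMP signaling had 3 of 31 (9.68%), close to the share over all genes, with a median of 1152 bp and none long in all lists. SMAD3, its main effector, had 4783 bp in every si-NC list and in si-FTO replicate 2 alone. SKI, a repressor of SMADs, had 3637 bp in all lists but si-FTO replicate 1, and its relative SKIL had 4591 bp in si-FTO replicate 3 and 722 to 1223 bp in the others.

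Adhesion, matrix and cytoskeleton genes had 18 long members of 50 (36.0%, median 1636.5 bp, 11 in all lists), and many of these are also genes with very long exons. Cell cycle, DNA repair and centromere genes had 8 of 28 (28.6%, median 1138 bp, 5 in all lists). BRCA1, a repair factor, had 3610, 3597 and 3624 bp in si-NC, 3610 bp in si-FTO replicate 1 and none in the other 2. BRCA2 had 4932 bp in si-NC replicate 1 and si-FTO replicates 1 and 3, with folds of 3.16, 3.67 and 3.33. BRCA1 was thus listed in every si-NC library and BRCA2 in part of the libraries of each group. Translation silencing and RNA decay had 1 of 23 (4.35%), the splicing factor gene MBNL1 with 3396 bp in si-FTO replicate 1 alone, and the median of the list was 1016 bp. A joint list of glucose metabolism genes and of genes followed in the study had 1 of 21 (4.76%), the glycosyltransferase gene B3GNT7, with a median of 824 bp. Solute carriers had 8 of 99 and a median of 1057 bp. Ubiquitin ligase and protease symbols had 13 of 174 and a median of 1019 bp. RAB and TBC genes had 0 of 59 and a median of 1029 bp. The shares of the adhesion and cell cycle lists lay above the 9.21% of all genes. Those of the translation silencing, glucose metabolism, solute carrier, ubiquitin and RAB lists lay below it.

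Other intervals of the same genes were common, since 390 of the 702 genes (55.6%) had one outside the merged regions. By chromosome, 59 regions (8.22%) were on 19, which held 6.8% of all merged regions, 64 (8.91%) were on 1, which held 10.4%, and 50 (6.96%) were on 3, which held 5.36%. The lists named a RefSeq coding transcript for 87.3% of the long intervals and 82.5% of all intervals.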

How the data were processed

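Values were taken from 6 peak lists, 1 per IP library. Per the identifiers of the peaks, the authors' caller was MACS. CASAVA 1.8 and BWA stand in the submitters' processing notes. Positions are in hg19, and caller settings were not given in the sources used here. The authors deposited, within each list, a score (minus log10 p multiplied by 10), a ratio (fold enrichment of IP over input) and an FDR in percent. Listed length equalled end minus start in all rows. Positions are given from 1. Each list has 1 emptied line, not analysed here.

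Regions were merged with pandas 2.3.3 in Python 3.11.15, and exact tests over lists were run on all intervals. The merging and the comparison of lengths were tried on simulated data, and the exact tests on fixed values. Groups did not overlap where every value of one lay above every value of the other. The genes named are the 12 longest regions, the 10 longest on average among those long in all lists, those long in 1 group alone, the 10 widest edge shifts, the 10 with the highest lowest fold percentile, members of each gene list by length (up to 6), genes the paper names, and the 5 intervals on each side of the limit. The limit, gene lists and rules were chosen with earlier results of these data known. Alternatives were limits of 2000 and 5000 bp, another merging rule, a fold filter, a margin of 100 bp and leaving out each library. Peak sequences and exon positions were not used here.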

Additional observations from a re-analysis of the deposited data

How the results depend on the processing

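Of 112 alternatives, 71 kept the direction, the side of the threshold or, for counts, a value within 1.5 times. The others were lists left out and limits of 2000 and 5000 bp, which admit more or fewer intervals by construction. At these limits there were 1794 and 145 regions, 796 and 61 long in all 6 lists, 60 and 5 long in si-FTO alone, and 33 and 0 long in si-NC alone. Longer in si-FTO were 162 and 17, longer in si-NC 29 and 2, and 197 and 19 had a shifted edge. Listed at any length in si-FTO alone were 27 and 1, and in si-NC alone 40 and 1. At 5000 bp the difference in fold percentile between groups turned to 0.759 (exact permutation test, p = 0.6), and the cause was not tested. A margin of 100 bp kept 71 regions longer in si-FTO and 16 in si-NC.

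Leaving out each library in turn gave 26 to 39 regions long in si-FTO alone, 16 to 25 long in si-NC alone, 4 to 10 listed in si-FTO alone and 14 to 27 in si-NC alone. Such counts grow when 1 list fewer has to fit the pattern. The fold gap ranged from 13.4 to 14.8 points and the score gap from 26.4 to 27.8, each with an exact permutation p = 0.0625, the smallest that 5 lists allow. Lengths of lists with the same replicate number deviated together at correlations of 0.0227, -0.0514 and -0.0271. Lists with different numbers had -0.0548 to 0.0771. These values cannot tell whether libraries with the same number were handled together. With the replicate number as a block (replicate block) the group difference in fold percentile was -1.92 (exact permutation test over pairs, p = 0.5).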
